A study of Sus scrofa with 24 samples.

Results

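The antiviral genes MX1, MX2, ISG15, OAS1, OASL, SAMD9 and DDX58, which type I interferon induces, were followed in the hearts of pigs with a myocardial infarct. A probe belonged to the set when the gene name given for it in the array files was 1 of these 7 symbols, or when an accession given there mapped to 1 of them. This rule took 14 of the 43603 probes and 7 of the 6941 genes that could be named. MX1 had 5 probes, MX2, OAS1 and DDX58 had 2 each, and ISG15, OASL and SAMD9 had 1 each. All 14 passed the filter on dim probes, and each gene was read from its brightest probe.

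The animals were domestic pigs with a reperfused infarct made by a closed-chest procedure. Both arms had taken 250 mg aspirin and 300 mg clopidogrel the day before the infarct and took 100 mg and 75 mg of these drugs daily thereafter. At 1 month the pigs were randomized to the secretome of apoptotic peripheral mononuclear cells or to medium as placebo, given through a catheter into the heart muscle, and 1 month later the heart was sampled. The secretome arm, pigs 11 to 16, gave 6 arrays of the infarct core, 6 of the border zone and 4 of the normal region. The medium arm, pigs 10, 18 and 40, gave 3, 3 and 2 arrays of the same regions. The labels call pigs 10, 18 and 40 not treated, and they are read here as the placebo arm because the protocol names no other. Pigs 12, 13 and 40 had no normal region array. The border zone was also the injection zone, so the site of the infarct's edge and the site of delivery cannot be told apart there.

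Type I interferons are cytokines that cells release after sensing viral or misplaced nucleic acid. They bind the receptor chains IFNAR1 and IFNAR2 and, through transcription factors that include STAT2 and IRF9, switch on a large set of genes that block virus replication. The same genes are known to be induced without infection, in macrophages that take up the DNA of dying heart muscle cells in the mouse heart.

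The readings rest on oligonucleotides of 60 bases, and 6 of them are printed here, 5′ to 3′ in lower case as the array files give them, with the position of the probe's start in the transcript. They are shown because the main readings of ISG15, OAS1 and SAMD9 rest on them, and because the MX1 and OAS1 pairs are independent stretches of 1 transcript each whose agreement is used below.
ISG15, from base 565: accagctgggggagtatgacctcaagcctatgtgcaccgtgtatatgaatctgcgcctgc
MX1, from base 1160: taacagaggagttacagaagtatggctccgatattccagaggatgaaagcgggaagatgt
MX1, from base 1934: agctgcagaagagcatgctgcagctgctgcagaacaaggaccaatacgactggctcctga
OAS1, from base 676: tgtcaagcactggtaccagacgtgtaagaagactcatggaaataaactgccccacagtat
OAS1, from base 871: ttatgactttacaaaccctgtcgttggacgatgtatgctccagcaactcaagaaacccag
SAMD9, from base 2571: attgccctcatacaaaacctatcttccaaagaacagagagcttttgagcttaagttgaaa
The longest run shared by probes of different genes of the set was 9 bases, also between the neighbouring relatives MX1 and MX2. In the RefSeq assembly Sscrofa11.1 MX2 and MX1 lie side by side and OAS1 lies next to OAS2. The array files place none of these probes on a genome build, so no coordinates are given.

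Levels are log2 signals relative to the 75th percentile of the array, so 0 is the signal at that percentile. Between 61.5% and 75.6% of probes were well above background on an array. The arrays fell into 2 scan series of 12, with all arrays of a pig in the same series. Deviations from the group means correlated at -0.45 on average between the series, against 0.58 within a pig and 0.44 between pigs of the same series. Values within each series are given beside the region differences of the 7 genes. Whether replicates share housing or handling is not stated. The p-values rest on a spread shared by all groups, within and between these pigs. The same correlation between arrays of a pig was taken for all probes.

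Expression in the infarct core was compared with the normal region. Of the 7 genes, MX1, SAMD9, DDX58 and MX2 were higher in the infarct core and none was lower. For comparison, 25.4% of all 34360 probes tested were higher in the infarct core and 27.6% were lower, which makes 53% in either direction. The median difference of the 7 genes was 0.73 on the log2 scale, against -0.07 for all 6205 named genes. The arrays measured whole tissue, where a different number of cells of a type and a different amount of RNA per cell cannot be told apart.

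MX1 encodes a dynamin-like GTPase that traps the nucleoproteins of influenza and other viruses. In the infarct core its level ran between 4.42 and 6.13 with a median of 4.65 on 9 arrays, and in the normal region between 2.84 and 4.94 with a median of 3.69 on 6 arrays. The ranges touched only through pig 18 of the medium arm, whose normal region read 4.94, above 5 of the 9 infarct core arrays. Within pigs the infarct core was higher in 6 of 6, by 0.55 to 2.36. The difference was 1.36 ± 0.28 (SE, log2), a 2.56-fold higher level, with an adjusted p of 0.00038 in limma. The 5 MX1 probes gave differences between 1.29 and 1.49, and all passed. Within scan series 1 it was 1.49 with an adjusted p of 0.0587, and within scan series 2 it was 1.28 with an adjusted p of 0.0282.

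SAMD9, which encodes a cytoplasmic protein that restricts poxviruses in human cells, was 1.99-fold higher in the infarct core. Its level there ran between -1.34 and 0.22 with a median of -0.63, and in the normal region between -1.90 and -1.08 with a median of -1.38. All 6 pigs with both regions had more in the infarct core, by 0.40 to 1.29, and the lowest infarct core array came from pig 12, which had no normal region. The difference was 0.99 ± 0.18 (SE, log2) with a limma adjusted p of 0.000133. It passed within both scan series, at 1.17 and 0.97. The SAMD9 probe takes its name from the array files, and the RefSeq genes used held no gene of that symbol. Whether it reads SAMD9 alone was not tested.

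DDX58 encodes RIG-I, the helicase that senses viral RNA in the cytoplasm and triggers interferon production. The infarct core read between -3.21 and -1.14 with a median of -2.40, and the normal region between -3.80 and -1.87 with a median of -3.47. The ranges overlapped widely, and the highest value of each region was that of pig 18. The infarct core was higher by 0.89 ± 0.29 (SE, log2), 1.85-fold, with a limma adjusted p of 0.0129, and 5 of 6 pigs showed that direction. Pig 14 had by far the widest gap, 2.35, and in pig 11 the infarct core was lower by a difference of -0.07. Without pig 10 the difference was 0.83 with an adjusted p of 0.0691, and with a normexp background correction it was 0.20 with an adjusted p of 0.611. Within scan series 1 and 2 the DDX58 difference was 0.91 and 0.78, with adjusted p of 0.16 and 0.186. It had an adjusted p of 0.0887 without the pig as a block and 0.0605 with slide as the block. The other DDX58 probe gave 1.35 ± 0.56 (SE, log2) with a limma adjusted p of 0.0476, and it was well above background on 2 of 6 normal region arrays.

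MX2, the relative of MX1 known in human cells to restrict HIV, showed the smallest of the 4 differences. It ran between 0.70 and 2.04 with a median of 1.12 in the infarct core, and between 0.33 and 1.64 with a median of 0.69 in the normal region. The difference was 0.50 ± 0.20 (SE, log2), 1.42-fold, with a limma adjusted p of 0.0356, and 5 of 6 pigs had that direction. The call was kept in 11 of 24 alternatives, and it was lost on leaving out pig 10, 12, 14, 15 or 16, with adjusted p of 0.122, 0.05005, 0.0776, 0.0616 and 0.0737. With scan series as a covariate the adjusted p was 0.156. The other MX2 probe gave 0.24 ± 0.19 with an adjusted p of 0.287, and within scan series 1 and 2 the values were 0.50 and 0.38 with adjusted p of 0.401 and 0.358.

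**Figure D1:**
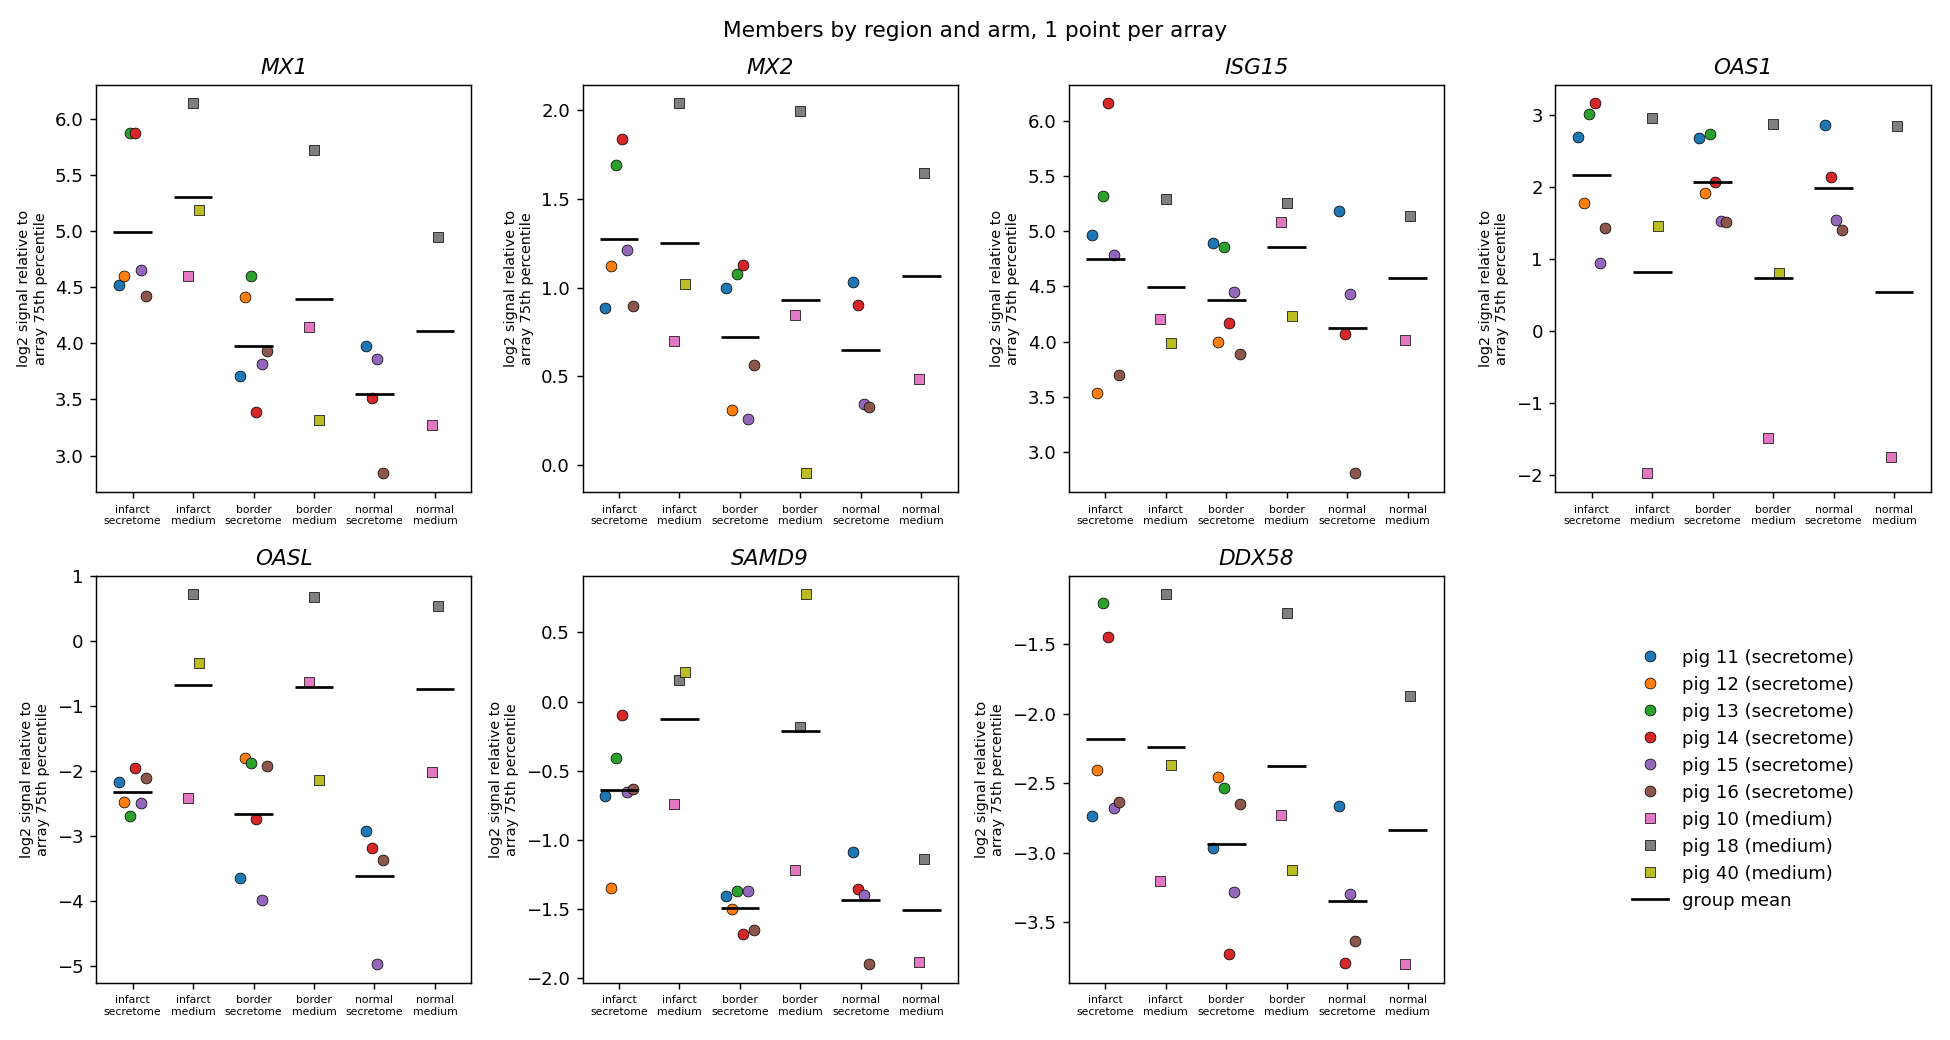
Each panel plots 1 gene as its log2 signal relative to the 75th percentile of the array, with 1 point per array, coloured by pig, over the 6 groups of region and arm, and a bar for the group mean. MX1 was at 4.42 or above on all 9 infarct core arrays, and the medium pig 18 stood high for MX1, MX2, OASL and DDX58 in each of its 3 regions.

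The other 3 genes did not pass between infarct core and normal region. ISG15 encodes a ubiquitin-like protein that is attached to viral and host proteins. It ran between 3.54 and 6.16 with a median of 4.78 in the infarct core and between 2.81 and 5.18 with a median of 4.25 in the normal region, a difference of 0.39 ± 0.29 (SE, log2) with a limma adjusted p of 0.265. In pig 14 the infarct core exceeded the normal region by 2.09, while the other 5 pigs lay between -0.21 and 0.89. With quantile normalization the ISG15 difference was 0.76 with an adjusted p of 0.0426. It was 0.47 and 0.46 within scan series 1 and 2.

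OASL, a relative of the oligoadenylate synthetases whose human protein lacks the enzyme activity and acts with RIG-I, gave 0.73 ± 0.40 (SE, log2) with a limma adjusted p of 0.136. Its infarct core levels ran between -2.69 and 0.72 with a median of -2.17, and its normal region levels between -4.97 and 0.54 with a median of -3.05. The reading of -4.97, in pig 15, was not well above background, and the gap of 2.48 in that pig was the widest of the 6. The OASL difference was 0.50 and 0.55 within the 2 series. OAS1, an oligoadenylate synthetase that double-stranded RNA activates, had a difference of 0.12 ± 0.40 (SE, log2) with an adjusted p of 0.822. The 95% interval of that difference was -0.71 to 0.96, so a difference of 1 in either direction lay outside it. OAS1 ran between -1.98 and 3.16 in the infarct core and between -1.76 and 2.86 in the normal region, with medians of 1.78 and 1.84. The OAS1 difference was 0.07 and -0.07 within scan series 1 and 2.

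**Figure D2:**
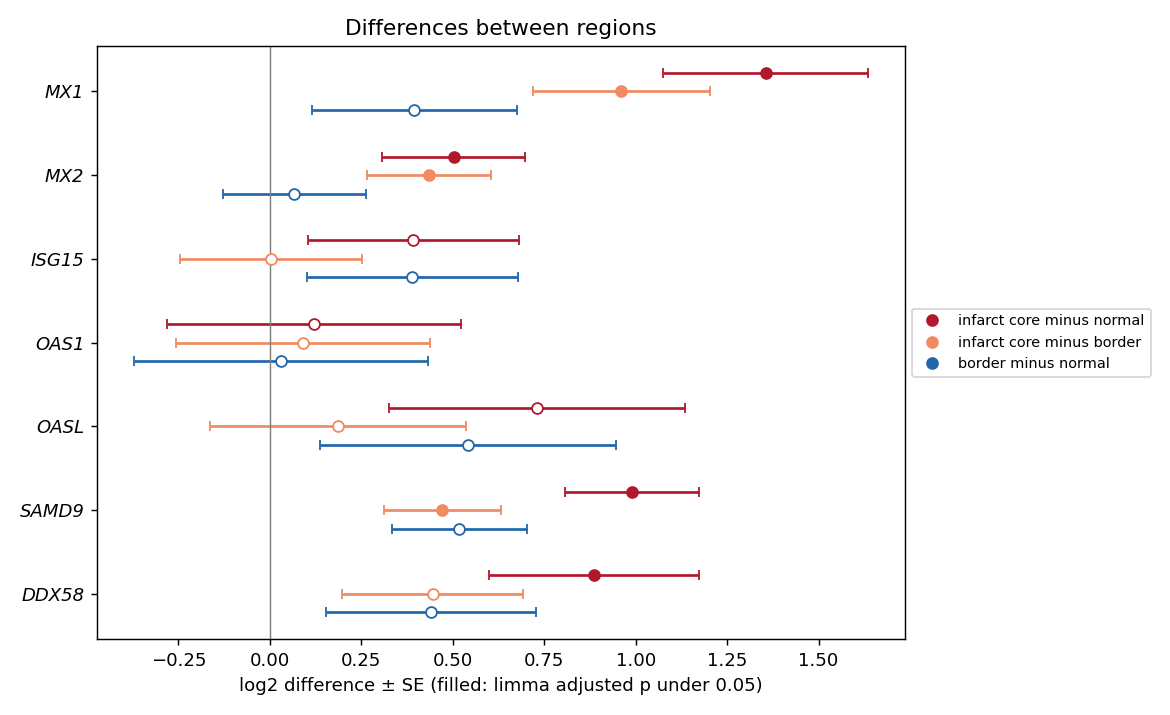
Points are the log2 differences between regions for each gene with bars of 1 standard error, filled where the limma adjusted p was under 0.05. MX1, SAMD9, DDX58 and MX2 passed between infarct core and normal region, and no border zone difference against the normal region passed.

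Against the border zone, 3 of the 7 genes were higher in the infarct core, where 23% of all probes were higher, 23.6% were lower and 46.7% passed in either direction. MX1 ran between 4.42 and 6.13 in the infarct core, against 3.31 to 5.72 with a median of 3.93 in the border zone. It was higher in the infarct core of all 9 pigs, by 0.19 to 2.48. Its difference was 0.96 ± 0.24 (SE, log2), 1.95-fold, with a limma adjusted p of 0.00273, and its 5 probes gave 0.89 to 1.03. Within scan series 1 and 2 it was 0.89 and 0.91, with adjusted p of 0.126 and 0.0945. With a normexp background correction it was 0.70 with an adjusted p of 0.127.

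SAMD9 ran between -1.34 and 0.22 in the infarct core, against -1.68 to 0.78 with a median of -1.37 in the border zone. It was higher in the infarct core of 8 of 9 pigs, and the exception was pig 40, whose border zone held the highest SAMD9 reading of all 24 arrays. The SAMD9 difference was 0.47 ± 0.16 (SE, log2) with a limma adjusted p of 0.0192, and without pig 10, 14 or 18 it was 0.37, 0.40 or 0.41 with adjusted p of 0.0823, 0.0554 or 0.0948. Within scan series 1 and 2 it was 0.30 and 0.74, with adjusted p of 0.313 and 0.0436. MX2 was higher by 0.43 ± 0.17 with an adjusted p of 0.0397, and this call was kept in 8 of 24 alternatives. Within scan series 1 and 2 MX2 was higher by 0.57 and 0.19 with adjusted p of 0.219 and 0.681. The mean difference within pigs was 0.30 on the other MX2 probe, against 0.47 on the brightest. Without the border zone array of pig 40, which had the lowest share of probes well above background, the MX2 difference was 0.23 with an adjusted p of 0.253, and without pig 40 it was 0.25 with an adjusted p of 0.237. DDX58 differed by 0.44 ± 0.25 with an adjusted p of 0.148, and by 0.46 and 0.28 within the series. The series differences were -0.08 and -0.04 for ISG15, 0.20 and -0.16 for OAS1, and 0.19 and -0.26 for OASL.

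The border zone was not told apart from the normal region by any of the 7 genes in limma, where 0.466% of all probes passed in either direction, 0.457% being higher and 0.00873% lower. SAMD9 had the smallest p, 0.0104 before adjustment and 0.2 after it, at 0.52 ± 0.18 (SE, log2). It was the only member with an unadjusted p under 0.05, which 4910 of all 34360 probes had. The pigs did not share a direction for SAMD9: the border zone exceeded the normal region by 0.96, 0.66 and 0.25 in pigs 18, 10 and 16, and the differences were 0.03, -0.32 and -0.32 in pigs 15, 11 and 14. MX1 had 0.39 ± 0.28, with a 95% interval of -0.19 to 0.98.

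Other genes of the pathway were read from lists written with earlier results of these data known. Of 29 further genes induced by type I interferon, out of 62 listed, 17 were higher in the infarct core than in the normal region and none was lower, with a median of 0.50. Over all named genes 27.4% were higher and 30.9% lower. The count of 17 was 10 without pig 10, 8 without the pig as a block and 5 with normexp. TNFSF10, the death ligand TRAIL, was higher by 0.98 ± 0.17 (SE, log2; limma adjusted p 6.39e-05) and the RNA sensor IFIH1 by 0.94 ± 0.20 (limma adjusted p 0.000601). Among the 12 that did not pass, named after their values were seen, IFIT1 had 0.26, RSAD2 had 0.18 and IFIT2 had -0.06. Against the border zone 13 of the 29 were higher and none was lower, with the RIG-I relative DHX58 at 0.70, where 25.6% of all named genes were higher. That count was 5 without pig 40, 6 without pig 14, 3 without the pig as a block and 1 with normexp.

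Interferon genes differed in detection. IFN-DELTA-1, a type I interferon of pigs, and the type III interferon that the files call IL29 were well above background on all 24 arrays. IFN-DELTA-1 did not pass between infarct core and normal region, at 0.22 ± 0.19 (SE, log2; limma adjusted p 0.345), and IL29 was lower in the infarct core, by a difference of -0.67 (limma adjusted p 0.00377). IFNA1 was well above background on 6 of 9 infarct core arrays, 2 of 9 border zone arrays and 0 of 6 normal region arrays, which allows no fold. Probes for IFNB1, IFNE, IFN-OMEGA-3 and IFN-OMEGA-4 were not well above background on at least 3 arrays and were not tested. Of 6 ligand and receptor genes tested, 3 were higher and 2 lower in the infarct core. Over all named genes 27.4% were higher and 30.9% lower, so the lower count is near the share of all genes. The 3 higher genes include IFNA1, which met the filter of 3 arrays only through the infarct core. Its call is therefore not read as a difference. The probes of the receptor chains went apart. IFNAR1 was higher by 0.63 and IL10RB by 0.96, while IFNAR2 was lower, with a difference of -0.40 ± 0.11 (SE, log2, limma adjusted p 0.00521). The IFNAR2 probe was far brighter, with a normal region mean of 9.35, against -0.55 for IFNAR1 and -1.34 for IL10RB. Whether it reads the IFNAR2 transcript alone was not tested.

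Signal transduction and sensing genes are set against the 27.4% of all named genes that were higher and the 30.9% that were lower in the infarct core than in the normal region. Of 11 genes that carry or restrain the interferon signal, 8 were higher and none was lower. IRF1 was higher by 0.83, the feedback inhibitor SOCS3 by 1.22 and STAT2 by 0.67. Of 19 genes of nucleic acid sensing, 11 were higher and 3 were lower, led by the adaptor MYD88 with 1.40, the kinase IRAK4 with 1.39, and the RNA receptors TLR7 with 2.07 and TLR3 with 1.18. The 3 lower genes, named after their values were seen, were the adaptor MAVS with -1.99, the kinase IRAK1 with -0.76 and TRAF6 with -0.60. The summed linear level of the 19 ran between 54.0 and 82.2 with a median of 61.6 in the infarct core. In the normal region it ran between 77.4 and 87.6 with a median of 81.6. Such a sum weighs the brightest genes most and was not tested. Of the 19, 15 had a difference above 0, and the median difference was 0.64. Another list held 11 genes, namely interferon gamma, its receptor chains and genes best known for induction by it. Of these, 5 were higher and none was lower. Among the 5 were the receptor chain IFNGR2 with 0.86, the immunoproteasome subunit PSMB9 with 0.70 and the chemokine CXCL9 with 1.35. Some genes, among them STAT2 and IRF1, stood in more than 1 of these lists.

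Marker transcripts of several cell types also differed between the regions. All 12 macrophage markers were higher in the infarct core than in the normal region, and their summed level, on the linear scale relative to the 75th percentile, ran between 85.1 and 315 in the infarct core, against 39.0 to 118 for the border zone and 45.3 to 83.6 for the normal region. Of 15 T and NK cell markers 11 were higher and 1 was lower, with sums of 6.38 to 44.4 in the infarct core and 6.19 to 25.6 in the normal region. All 6 fibroblast markers were higher, and all 10 cardiomyocyte markers were lower, with sums of 147 to 7627 in the infarct core and 6307 to 10290 in the normal region. Of 7 endothelial markers 2 were lower and none was higher, and of 4 B and plasma cell markers 2 were higher and 1 was lower. Over all named genes 27.4% were higher and 30.9% lower, so the endothelial count is near the share of all genes. The label of heart muscle holds in the border zone and normal region, while in the infarct core of pig 40 muscle transcripts were at 147. The part of these cell types in the differences of the interferon-induced genes was not tested.

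Secretome was then compared with medium in each region. None of the 7 genes passed in limma in the infarct core, where 0.0146% of all probes passed, in the border zone, where 0% passed, or in the normal region, where 0% passed. Before adjustment 1, 2 and 1 of the 7 had a p under 0.05 in these regions, as had 1683, 2475 and 596 of all 34360 probes. Averaged over infarct core and border zone, none passed against 0% of probes. There 3 of the 7 had an unadjusted p under 0.05, as had 1876 of the 34360 probes. None passed in the interactions of arm with region either, where 0% of probes passed. Only SAMD9 had an unadjusted p under 0.05 there, of 0.0244, for infarct core against border zone. In that interaction 1877 of the 34360 probes had an unadjusted p under 0.05.

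OASL was lower with secretome in each region before adjustment. In the infarct core it ran between -2.69 and -1.95 with a median of -2.32 on the 6 secretome arrays, against -2.41, 0.72 and -0.33 in medium pigs 10, 18 and 40. In the border zone it ran between -3.98 and -1.79 with a median of -2.33 with secretome, against -0.63, 0.67 and -2.14 with medium. In the normal region the 4 secretome arrays read -2.92, -3.18, -4.97 and -3.37 in pigs 11, 14, 15 and 16, against -2.02 and 0.54 in medium pigs 10 and 18.

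The arms did not overlap in the normal region, where medium had 2 arrays, and overlapped elsewhere. The OASL differences were -1.64 ± 0.74, -1.96 ± 0.74 and -2.58 ± 0.84 (SE, log2) in infarct core, border zone and normal region, with unadjusted p of 0.0366, 0.0144 and 0.00584 and limma adjusted p of 0.974, 0.662 and 1. Pig 18 was the highest of all pigs in every region. Without it the differences were -0.94, -1.27 and -1.60. Within scan series 1 the infarct core difference was -2.62 and within scan series 2, with 1 medium pig, it was 0.21. In the authors' deposited values the border zone difference was -0.90.

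SAMD9 in the border zone had the smallest unadjusted p of the set between the arms, 0.000962, with a limma adjusted p of 0.662. Its 6 secretome arrays lay close together, between -1.68 and -1.37 with a median of -1.45. Medium pigs 10, 18 and 40 read -1.22, -0.18 and 0.78. The difference was -1.28 ± 0.33 (SE, log2), 2.44-fold lower with secretome. Without pig 40 it was -0.79, within scan series 1 it was -1.80 and within scan series 2, with 1 medium pig, it was -0.26. In the infarct core the SAMD9 difference was -0.51 ± 0.33, with secretome arrays between -1.34 and -0.10 and medium arrays at -0.74, 0.15 and 0.22, and in the normal region it was -0.19 ± 0.38.

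OAS1 was the only gene of the set that read higher with secretome in all 3 regions, by 1.36 ± 0.73, 1.34 ± 0.73 and 1.41 ± 0.83 (SE, log2) in infarct core, border zone and normal region, with limma adjusted p of 0.974, 0.692 and 1. Medium pig 10 read -1.98, -1.49 and -1.76 in the 3 regions, and without it the differences were -0.04, 0.23 and -0.18. MX1, MX2, ISG15 and DDX58 differed between the arms by -0.56 to 0.25 over the 3 regions. Their 95% intervals were wide, for MX1 -1.38 to 0.74 in the infarct core and -1.48 to 0.64 in the border zone.

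**Figure D3:**
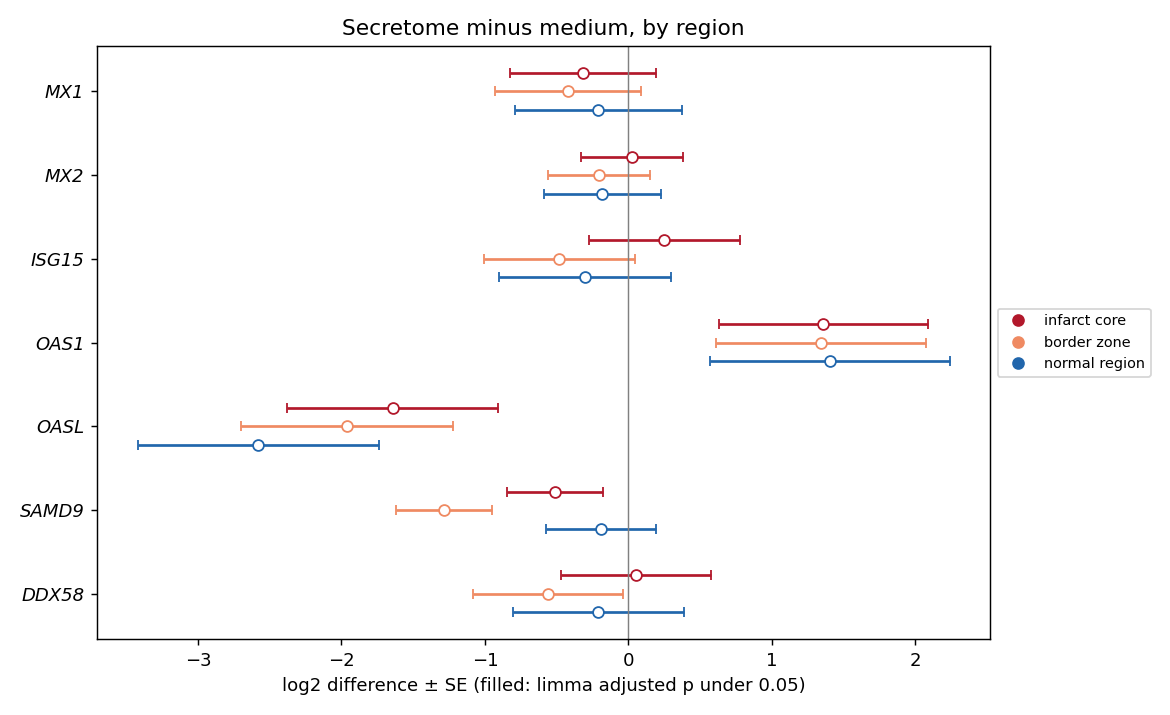
Points are secretome minus medium differences on the log2 scale with bars of 1 standard error, for each gene in 3 regions. No point is filled, since no limma adjusted p was under 0.05, and the OASL points lie between -2.58 and -1.64 while the OAS1 points lie between 1.34 and 1.41.

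Among 29 other interferon-induced genes none passed in any region, and 2, 3 and 6 of 29 had differences above 0 in infarct core, border zone and normal region, with medians of -0.33, -0.49 and -0.25. The chemokine CXCL10 had -2.12 ± 0.54 (SE, log2; limma adjusted p 0.662) in the border zone. These genes share the same 3 medium pigs. The macrophage marker sum ran between 85.1 and 207 with secretome and between 194 and 315 with medium in the infarct core. In the border zone it ran between 39.0 and 92.5 with secretome and between 86.2 and 118 with medium. In the normal region it ran between 51.0 and 64.9 with secretome and between 45.3 and 83.6 with medium. The T and NK cell sum ran between 6.38 and 27.7 with secretome and 9.30 and 44.4 with medium in the infarct core. All 10 cardiomyocyte markers read higher with secretome in the infarct core, with a median difference of 1.83 and sums of 1818 to 7627 with secretome and 147 to 4001 with medium. All 7 endothelial markers read higher with secretome in each region, with medians of 0.36, 0.60 and 0.49 in infarct core, border zone and normal region. In the border zone all 6 fibroblast markers read lower, with a median of -1.28. None of these markers passed in limma; 4 cardiomyocyte markers in the infarct core, 0, 1 and 1 endothelial markers in the 3 regions and 1 fibroblast marker in the border zone had an unadjusted p under 0.05. The part of these cell types in the arm differences was not tested.

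For each of the 7 genes more of the sum of squares lay between the 9 pigs than between the 3 regions, though for MX1 the shares were 44.6% and 41.8%. With 9 pigs and 3 regions the pigs have more degrees of freedom, so the design itself favours a larger share between pigs. Arm and scan series do not vary within a pig, so their part lies in the pig share. The share of the sum of squares that lay between pigs was 97.2% for OAS1, 78.2% for OASL, 66.7% for MX2, 64.0% for ISG15, 56.7% for SAMD9 and 55.4% for DDX58. Over 6190 named genes the median share was 54.8% and the 95th percentile was 91.8%, so only OAS1 lay above that percentile. Pig 18 was above the mean of its region for all 7 genes, by 2.79 for OASL, 1.29 for MX1, 1.28 for DDX58, 1.28 for OAS1, 0.94 for MX2, 0.74 for ISG15 and 0.61 for SAMD9. Pig 40 exceeded the region means for SAMD9 by 1.26 and for OASL by 0.65, and was below them for the other 5.

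**Figure D4:**
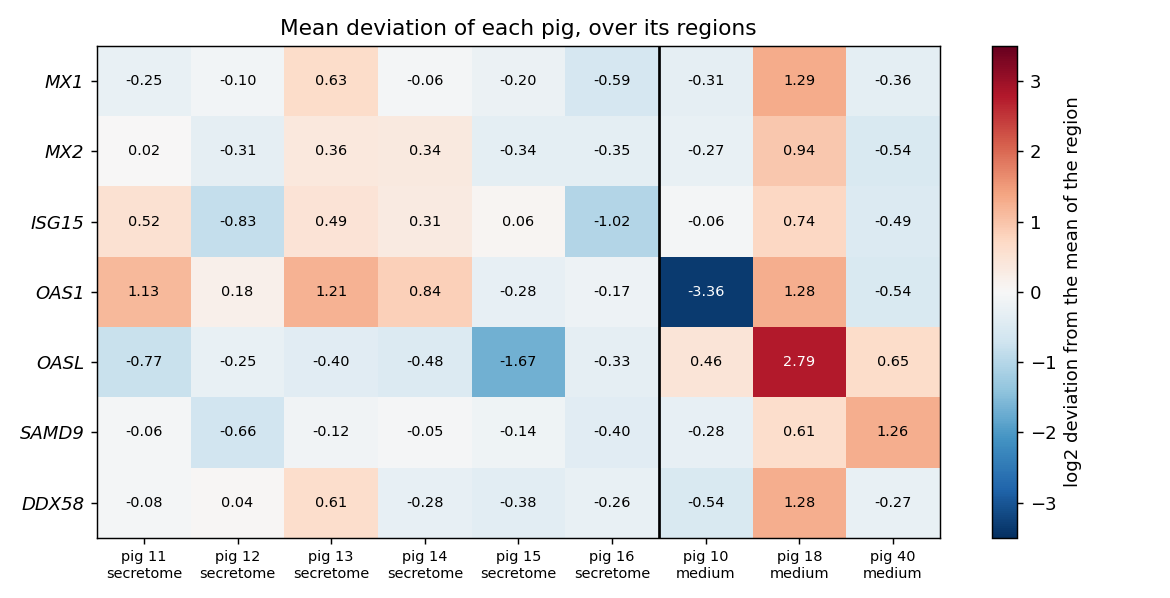
The heat map gives, for each gene and pig, the mean log2 deviation from the mean of all arrays of the same region, over the regions of that pig, with the secretome pigs left of the line and the medium pigs right of it. Pig 18 is positive in all 7 genes, and pig 10 is at -3.36 for OAS1 alone.

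The low OAS1 of pig 10 appeared on every probe that reads the gene. From base 871 the probe read -1.98, -1.49 and -1.76 in infarct core, border zone and normal region of pig 10, against 0.81 to 3.16 in all other pigs. From base 676 it read -2.66, -2.46 and -2.65 in pig 10, and a probe that shares an OAS1 transcript but lies outside the naming rule read -0.61, -0.28 and -0.64. All 9 readings of pig 10 were well above background. In the same pig the other 6 genes deviated from the region means by -0.54 to 0.46, and pig 10 shared its scan series with pigs 11, 14 and 15, which read between 0.94 and 3.16.

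**Figure D5:**
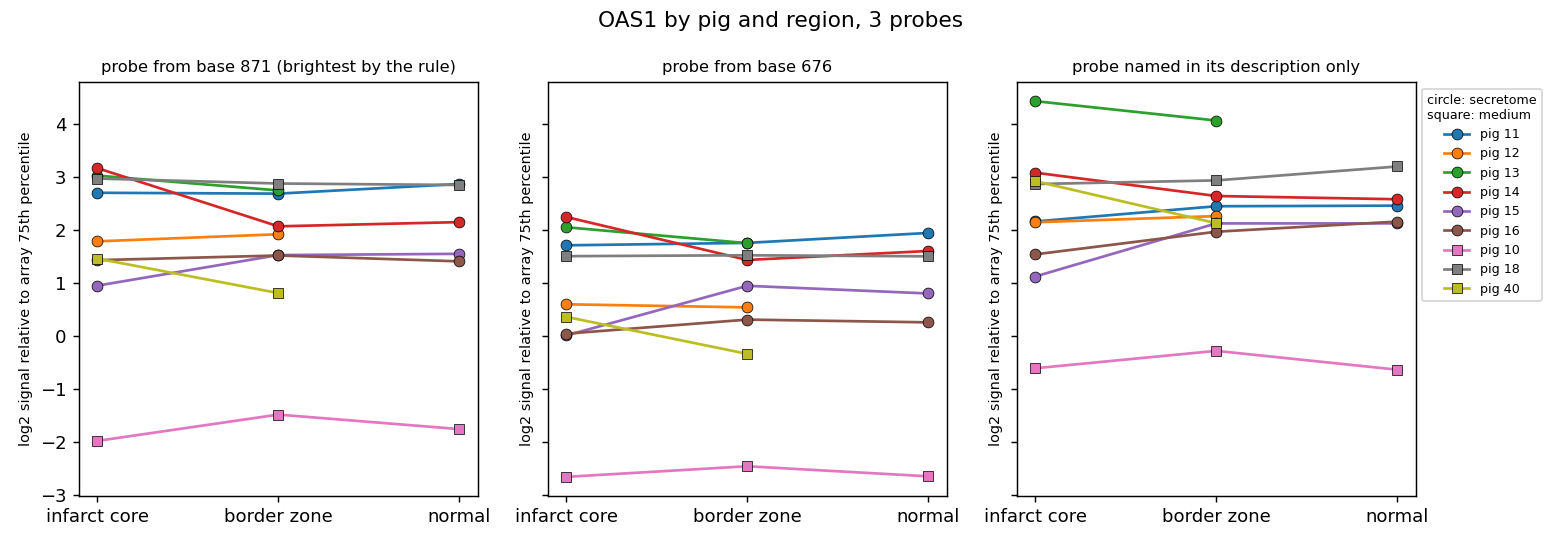
Lines join the regions of each pig for 3 OAS1 probes, on the log2 scale relative to the 75th percentile of the array. Pig 10 lies below all other pigs on each probe and in each region, in the infarct core at -1.98, -2.66 and -0.61.

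The genes also moved together across arrays to different degrees. Over 24 arrays Pearson's r was 0.93 between MX1 and DDX58, 0.81 between MX1 and MX2 and 0.64 between MX1 and ISG15, and 0.07 between OAS1 and OASL. After region means within each scan series were removed, r was 0.94 between MX1 and DDX58, 0.93 between ISG15 and DDX58 and 0.88 between MX1 and ISG15, while MX1 and SAMD9 had 0.30 and OAS1 and OASL had -0.09. These are descriptions over arrays of 9 pigs that share pigs, regions and scan series.

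Of 6183 other named genes, the 8 whose pattern over the 24 arrays was most like the mean of the set were a gene the files describe as TRIM5 (LOC733579, r of 0.89), IFIT3 (0.89), DHX58 (0.88), RSAD2 (0.88), IFI44 (0.88), IFIH1 (0.85), OAS2 (0.84) and IRF9 (0.83). With the means of each region and scan series removed, HERC5 (0.95) and PARP12 (0.95) led, followed by RSAD2, CDHR4, DHX58, LOC733579, ISG12(A) and IFIH1, with r between 0.88 and 0.92. RSAD2, whose difference between infarct core and normal region did not pass, was thus among the closest in pattern over arrays.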

How the data were processed

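Cy3-labelled RNA from 24 heart samples of 9 pigs was hybridised to 1-colour Agilent arrays, 1 array per sample, from 100 ng of total RNA with an integrity number above 6, per the labels' protocols. The deposited scanner files hold spot intensity and background flags written by Agilent's Feature Extraction software (version 10.7.3.1), as the deposited file headers state. The authors' deposited table holds log2 values, made with limma 3.14.4 per the submitters' processing notes; its normalization is not given in the sources used here. It was used as an alternative, where it held the brightest probe of 4 of the 7 genes.

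From the processed signal, control and outlier spots were left out and log2 was taken. Spots of a probe were averaged on that scale, and the 75th percentile of each array was subtracted. Of 43603 probes, 34360 were kept, each well above background on 3 or more arrays. Probes were named from the files or by matching their accessions to RefSeq names, which gave 14238 probes 1 symbol, 39 several and 29326 none. A gene was read from its brightest kept probe. The 6 groups entered 1 linear model under limma 3.58.1 and R 4.3.3. The pig was a random block, since arrays of 1 animal are paired, and the block correlation was 0.55. With scan series as a covariate that correlation was 0.20, so the 0.55 also holds what arrays of the same series share. P-values were adjusted by Benjamini-Hochberg over all kept probes with a threshold of 0.05. Arrays of the same pig deviated together, with r between 0.12 and 0.78. Array number and brightness limit the precision. The code was tested on simulated data.

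The 7 genes and the gene lists were chosen with earlier results of these data known. Named genes were the 7, per list up to 4 with the smallest p between infarct core and normal region and up to 2 against the border zone, for other interferon-induced genes up to 2 per arm comparison, and 8 per measure of likeness. Alternatives covered scaling, background correction, dim probes, choice of probe, blocks, scan series, the authors' values and leaving out pigs or the arrays of pig 40. Some genes that this rule names are not reported here.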

Additional observations from a re-analysis of the deposited data

Results flagged for a closer look

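Over both arms, the OAS1 level of medium pig 10 stood apart from all other pigs in each region, by Dixon's criterion for a gap at the end of a range. The infarct core read -1.98, the border zone -1.49 and the normal region -1.76, where the nearest other pigs read 0.94, 0.81 and 1.40. By chance about 1 in 20 groups meets this criterion, and the 3 values come from 1 animal.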

How the results depend on the processing

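The counts of members that passed between regions depended on several choices. Against the normal region, 4 members passed, with 2 without a replicate block, 2 with normexp, 2 with slide as the block, and 1 and 2 within scan series 1 and 2. Against the border zone, 3 passed, with 1 without a replicate block, 0 with normexp, 1 with slide as the block, 1 with the scan series as a covariate, and 0 and 1 within scan series 1 and 2. Leaving out 1 pig or 1 array of pig 40 gave 2 to 4 and 1 to 3, the lowest without pig 10 and without pig 14. Of 29 other interferon-induced genes, 17 passed against the normal region (8 without a replicate block, 5 with normexp, 8 and 5 within series 1 and 2, 10 to 19 leaving out a pig or array, the lowest without pig 10) and 13 against the border zone (3 without a replicate block, 1 with normexp, 3 with slide as the block, 2 and 0 within series 1 and 2, 5 to 13 leaving out, the lowest without pig 40); these alternatives for the 29 were added after seeing the data. With pig as a fixed replicate block 4 and 3 members passed. Over all probes, 18203 and 16044 passed against normal region and border zone; normexp gave 6847 and 6147 and moved the median difference to -0.21 and 0.12, against -0.05 and -0.01. Without a replicate block 9223 passed against the border zone, and within series 2 9714 and 5663 passed. No member passed between the arms, in an interaction or between border zone and normal region under any alternative run. SAMD9 passed between infarct core and normal region in all 24 alternatives, and MX1 in 23. The cause of the other changes was not tested. The within-series settings have fewer samples, and the medium arm had 3 pigs.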
